A study of Mus musculus with 8 samples.

Results

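A set of 38 genes of the cell cycle and of DNA replication was followed in mouse liver over 2 diets and 2 feeding times. The members were fixed as a list of names, not by their values, and all 38 were found by accession among the 19752 gene symbols on the array. They fall into 4 roles: 12 replication licensing and helicase genes, 5 genes of the replication fork and of nucleotide supply, 5 genes of G1/S control and the S-phase checkpoint, and 16 genes of G2/M and mitosis. The livers came from male C57BL/6 mice bought at 5 weeks of age and sorted by weight into 4 comparable groups. Mice ate a normal diet (ND: 4.8% fat, 50.21% carbohydrate, 20.78% protein, 3.8 kcal per gram) or a high-fat diet (HFD: 58% fat, 25.5% carbohydrate, 16.4% protein, 5.2 kcal per gram) for 3 or for 9 months. Each of the 4 groups held 2 mice, and total RNA of each liver was labelled with Cy3 and read on 1 one-colour Agilent array. The mice of different durations were also of different age when they were killed. Feeding time and age therefore changed together. The free-text description of ND 3 months replicate 1 also mentions steatohepatitis, while its title, source and diet label give ND, and it was treated as ND.

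Before a cell copies its DNA, the Mcm2 to Mcm7 ring, the core of the replicative helicase, is loaded onto origins in G1 by the origin recognition complex with Cdc6 and Cdt1, a step called licensing. Cdc45 and the GINS complex then switch the ring on in S phase, and the sliding clamp Pcna holds the polymerases on the template while ribonucleotide reductase (Rrm1, Rrm2), thymidylate synthase (Tyms) and thymidine kinase (Tk1) supply nucleotides. Cyclin A2 and B-type cyclins with Cdk1 drive entry into mitosis, where Plk1 and the Aurora kinases build the spindle and Cdc20 starts anaphase. Most hepatocytes of the adult liver are quiescent and re-enter the cycle after tissue loss or injury. E2F factors are known to act on many S-phase genes, while many G2/M genes carry a cell-cycle homology region (CHR) bound by the DREAM and MuvB complexes.

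Promoters of licensing and of mitotic members held short motifs at different shares, given here as a description. RefSeq promoter windows of assembly GRCm38.p6, from 250 bases before the transcript start to 50 after it, were found for 30 of the 38 members, in 31 windows because Mcm7 has 2. Mcm4, Gins1, Gins2, Ccnd1, Ccne2, Ccna2, Aurkb and Foxm1 were not matched. An E2F motif was searched on both strands in 4 spellings, of which the first was TTCCCGC, the next was TTGGCGC, a further spelling was TTCGCGC and the last was TTGCCGC. It was held by 9.57% of all 32851 windows. Among the members it was held by 70% of the 10 licensing windows (those of Mcm3, Mcm5, Mcm6, Mcm7, Cdc6 and Cdt1) and by 23.1% of the 13 mitotic windows (Ccnb1, Cdk1 and Mki67). The CHR, searched on both strands as TTTGAA or TTCGAA, showed the opposite pattern, with 19.2% of all windows, 30% of the licensing windows and 76.9% of the mitotic windows. The shorter CCAAT, also searched on both strands, was held by 37.4% of all windows, 80% of the licensing windows and 84.6% of the mitotic windows. E2F matches can overlap each other on opposite strands and can overlap CCAAT, as in the Mcm7 promoter. A match is a run of letters and not a measured binding site.

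The 180 bases before the start are shown for 5 members whose values are given in detail, 2 from licensing and 3 from mitosis. They are Mcm5 (chr8:75109329-75109508, plus strand), Mcm6 (chr1:128359706-128359885, minus strand), Cdc20 (chr4:118437344-118437523, minus strand), Cdk1 (chr10:69352913-69353092, minus strand) and Mki67 (chr7:135716380-135716559, minus strand). Capitals mark the E2F and CHR matches.

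Mcm5: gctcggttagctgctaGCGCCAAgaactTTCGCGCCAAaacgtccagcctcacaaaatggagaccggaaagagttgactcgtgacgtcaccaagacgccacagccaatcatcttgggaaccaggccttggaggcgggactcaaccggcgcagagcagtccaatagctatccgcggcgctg

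Mcm6: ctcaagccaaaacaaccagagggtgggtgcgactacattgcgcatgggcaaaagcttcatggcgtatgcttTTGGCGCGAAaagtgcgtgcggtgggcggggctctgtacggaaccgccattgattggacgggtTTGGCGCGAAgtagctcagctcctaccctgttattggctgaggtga

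Cdc20: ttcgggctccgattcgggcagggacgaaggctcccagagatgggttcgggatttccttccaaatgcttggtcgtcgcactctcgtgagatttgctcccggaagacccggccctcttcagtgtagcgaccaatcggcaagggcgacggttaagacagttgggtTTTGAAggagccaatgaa

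Cdk1: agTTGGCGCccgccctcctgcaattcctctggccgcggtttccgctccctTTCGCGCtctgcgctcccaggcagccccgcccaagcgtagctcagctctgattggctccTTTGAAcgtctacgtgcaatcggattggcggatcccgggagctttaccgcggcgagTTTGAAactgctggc

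Mki67: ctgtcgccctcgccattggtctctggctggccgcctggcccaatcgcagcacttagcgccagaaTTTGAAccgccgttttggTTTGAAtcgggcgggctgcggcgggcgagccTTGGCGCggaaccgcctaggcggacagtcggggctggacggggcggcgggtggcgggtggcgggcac

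Mcm5 held 3 E2F matches in this stretch, of which the last 2 overlap, and Mcm6 held 4, in 2 overlapping pairs. Neither held a CHR there. Cdc20 held a CHR that begins 18 bases before the start and no E2F match. Cdk1 held both kinds, with CHR matches beginning 71 and 15 bases before the start, and Mki67 held CHR matches beginning 116 and 98 bases before it and an E2F match beginning 67 bases before it.

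The diets were hybridised on separate slides, 1 slide for ND and 1 for HFD, and for every diet difference below diet and slide cannot be told apart. Within a slide, the durations occupied different rows (row 1 for 3 months, row 2 for 9 months). Arrays differed in brightness, with a 75th percentile of intensity between 482 and 597 for ND and between 185 and 428 for HFD, and in the share of spots well above background (40.6% to 54.1%); HFD 9 months replicate 2 was lowest in both. Levels below are log2 signals relative to the 75th percentile of the same array, so a level of 0 equals that percentile and a difference of 1 is a doubling. Each level belongs to its probe and is compared between arrays only. Folds given below as "at least" are estimates and not strict bounds, as explained with the processing. In whole liver, fewer cells of a type and less RNA per cell cannot be told apart.

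Of the 38 members, 31 had a probe that was well above background on every array of 1 group or more, and were tested: 11 licensing, 5 fork, 4 G1/S and 11 mitotic genes. The licensing factor Cdc6, cyclin E2 (Ccne2), topoisomerase II alpha (Top2a), the spindle checkpoint genes Bub1 and Bub1b, Aurkb and the spindle gene Nusap1 did not pass. Ccne2 stood at -6.82 and -5.86 on ND at 3 months, -5.93 and -6.67 on ND at 9 months, -5.70 and -6.08 on HFD at 3 months and -6.27 and -5.08 on HFD at 9 months. Top2a stood at -6.53 and -5.54, then -5.63 and -6.39 on ND, and at -3.28 and -3.60, then -4.35 and -4.66 on HFD, in the same order of durations. Neither gene was well above background on any array, so these values carry no order. Of the 31 tested, 22 were well above background on all 8 arrays. Gins2, Kif11, Ccna2 and Foxm1 passed only through a group on HFD, and Chek1 only through ND at 3 months, so counts and medians over the 31 include genes that were chosen by a group in which they were bright. By array, 30 and 27 of the 38 members were well above background on ND at 3 months, 22 and 28 on ND at 9 months, 31 and 30 on HFD at 3 months and 27 and 26 on HFD at 9 months.

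The first comparison was HFD against ND after 3 months. In the helicase ring 5 subunits (Mcm2, Mcm3, Mcm4, Mcm5 and Mcm6), cyclin A2, Cdc20 and Aurka rose on HFD, by 3.07 to 5.84 times. No member fell. Thus 8 of 31 members were called. Of all 20165 features tested, 5.18% were called at an adjusted p under 0.05, 1.51% higher and 3.67% lower. The fitted difference was above 0 for 26 members and below 0 for 5, against 49.5% of all features above 0, and the median difference was 1.05 against -0.01 over all features. Both HFD arrays lay above both ND arrays for 26 members, against 35.6% of all features, and below them for 3, against 35.4%. With testing limited to probes well above background on all 8 arrays, 7 of 22 members were called higher, where 942 features were called in either direction.

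Mcm5, a subunit of the ring, stood at -1.01 and -1.34 on ND and at 1.59 and 1.15 on HFD after 3 months. Its level was 5.84 times higher on HFD (log2 difference 2.55 ± 0.27, SE of the limma fit, n = 2 arrays per group, adjusted p 0.0117). Mcm6, at 1.44 and 1.12 on ND, reached 3.79 and 3.46 on HFD, a 5.07-fold difference (2.34 ± 0.20, adjusted p 0.00853). Both genes separated the diets by far more than the arrays of a diet differed. Mcm2 stood at -1.30 and -1.74 on ND against 0.59 and 0.29 on HFD (1.96 ± 0.24, adjusted p 0.0164). Mcm3 stood at 0.66 and 0.51 against 2.55 and 2.29 (1.84 ± 0.20, adjusted p 0.0117). Mcm4 stood at 0.59 and 0.27 against 2.16 and 1.94 (1.62 ± 0.27, adjusted p 0.0309). The sixth subunit, Mcm7, did not follow the other members of its ring. It stood at 2.22 and 2.19 on ND and at 2.95 and 2.48 on HFD, a difference of 0.51 ± 0.24 that did not pass (adjusted p 0.239), although the arrays did not overlap.

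The other licensing and helicase genes were mixed at 3 months, and none passed the test. Cdt1, which loads the ring with Cdc6, differed by 1.05 ± 0.27 (adjusted p 0.0727), and the GINS subunit Gins2, well above background on 1 of 2 ND arrays, by 1.64 ± 0.48 (adjusted p 0.0999). Gins1, of the same complex, differed by 0.21 ± 0.22. Cdc45 stood at -1.35 and -1.50 on ND and at -2.27 and -1.84 on HFD (-0.63 ± 0.27, adjusted p 0.195). Mcm10, which helps to activate the helicase and is not a subunit of the ring, differed by -0.71 ± 0.22 (adjusted p 0.117). Its probe was bright, at 6.30 and 6.53 on ND and at 5.86 and 5.56 on HFD. Differences among the 11 licensing genes thus ran from -0.71 to 2.55, with a median of 1.62.

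**Figure D1:**
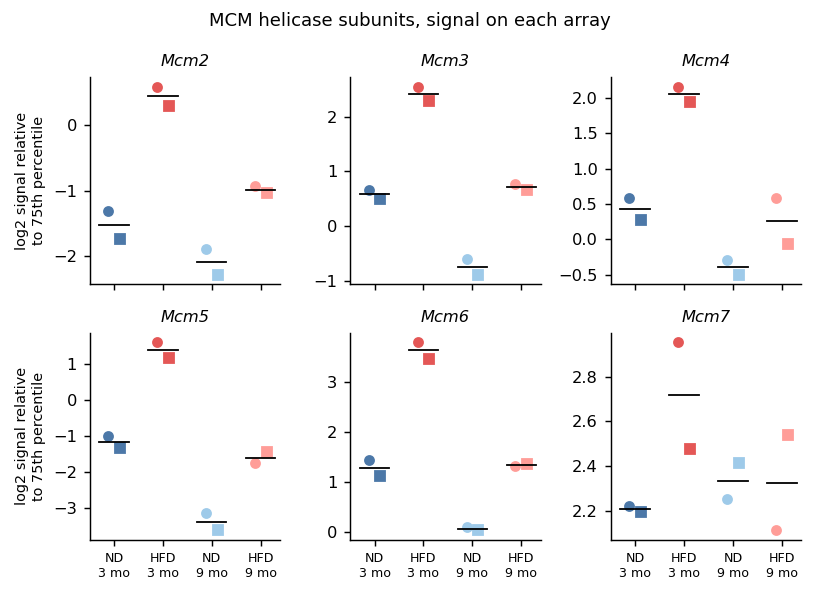
Log2 signal relative to the 75th percentile of each array (y axes, scaled separately for each gene) of the 6 subunits of the Mcm2 to Mcm7 ring on all 8 arrays, by diet and months of feeding. Circles are replicate 1, squares are replicate 2 and bars are group means; Mcm5 lies between -1.34 and -1.01 on ND and between 1.15 and 1.59 on HFD after 3 months, while the groups of Mcm7 lie within 2.11 to 2.95.

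Genes of the fork and of nucleotide supply showed smaller differences at 3 months, and 0 of 5 were called. The clamp gene Pcna stood at 3.32 and 3.33 on ND and at 4.09 and 3.83 on HFD (0.64 ± 0.25, adjusted p 0.179). Rrm1 differed by 0.74 ± 0.19 (adjusted p 0.0737) and Rrm2 by 0.80 ± 0.32 (adjusted p 0.175). For these 3 genes both HFD arrays lay above both ND arrays, against 35.6% of all features. Tyms (-0.29 ± 0.38) and Tk1 (-0.12 ± 0.45), the thymidine nucleotide enzymes, overlapped.

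Of the 4 G1/S genes tested, none was called at 3 months. Cyclin D1 (Ccnd1), which links growth signals to the cycle, came nearest. It stood at 1.53 and 1.27 on ND and at 3.98 and 3.72 on HFD, a 5.46-fold difference (2.45 ± 0.52, adjusted p 0.0528). E2f1, an activating E2F, stood at -0.21 and -0.43 against 0.55 and 0.17 (0.68 ± 0.21, adjusted p 0.116). Cyclin E1 (Ccne1) stood at -0.37 and -0.55 against 0.87 and -0.13 (0.83 ± 0.38, adjusted p 0.22). The arrays of the diets did not overlap for these 3 genes either. The checkpoint kinase gene Chek1 differed by -0.43 ± 0.44 and was not well above background on HFD, where it lay at least 1.11-fold lower (adjusted p 0.557).

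All 11 mitotic genes had a fitted difference above 0 at 3 months, against 49.5% of all features, with a median of 1.63. All 11 had both HFD arrays above both ND arrays, against 35.6% of all features. Kif11, Ccna2 and Foxm1 were kept only through a group on HFD, so their place above ND was partly set by that choice. Of the 11, 3 passed the test. Ccna2 stood at -3.39 and -3.71 on ND and at -1.71 and -1.65 on HFD (1.87 ± 0.30, adjusted p 0.0289), with 1 of the ND arrays not well above background. Cdc20, the activator of the anaphase-promoting complex, stood at -1.74 and -1.42 against 0.28 and -0.17 (1.63 ± 0.24, adjusted p 0.0234). Aurka, a centrosome and spindle kinase, stood at -2.00 and -2.11 against 0.20 and -0.51 (1.89 ± 0.38, adjusted p 0.047). The HFD arrays of Aurka lay 0.71 apart, more than on ND.

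The other 8 mitotic genes did not pass the test, with differences from 0.72 to 3.88. Cdk1, the mitotic kinase, stood at -2.78 and -3.28 on ND and at -1.23 and -1.70 on HFD (1.57 ± 0.36, adjusted p 0.0598). The proliferation marker Mki67 stood at -2.78 and -2.69 against -0.94 and -1.18 (1.67 ± 0.48, adjusted p 0.0939). A second kept probe of Mki67 differed by 2.15. Birc5 (survivin, of the chromosomal passenger complex) stood at -0.69 and -1.21 against 0.95 and 0.79 (1.82 ± 0.53, adjusted p 0.0994). The mitotic transcription factor Foxm1 stood at -3.93 and -3.85 against -2.84 and -2.43 (1.26 ± 0.49, adjusted p 0.168), with 1 of the ND arrays not well above background. Cyclin B1 (Ccnb1) stood at -3.24 and -2.81 against -1.94 and -2.67 (0.72 ± 0.84, adjusted p 0.614), the weakest of the role. Ccnb2 (1.04 ± 0.43) and Plk1 (1.04 ± 0.53) did not pass. The spindle motor Kif11 was well above background on HFD at 3 months only, at -0.09 and -3.06, and there it lay at least 5.43-fold above ND (adjusted p 0.0669). Its HFD arrays lay 2.97 apart.

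The 3-month calls rest on few arrays. Calls were lost when a 3-month array was left out, over all features as well as over the members. With 1 array left out in turn, the difference of Mcm5 ran from 2.325 to 2.765 and that of Aurka from 1.538 to 2.25. With all probes tested, dim ones included, the count of called members was 1, where 68 features were called in all, against 1045 in the main fit. In a fit of the 4 arrays of 3 months alone it was 17, where 2780 features were called in all. Calls over all features thus moved too, and these counts do not set the members apart. No called member changed sign under any of these settings. With the authors' deposited values all 8 calls held, but several differences were smaller, 0.82 for Ccna2, 0.88 for Cdc20, 1.15 for Aurka, 1.28 for Mcm2 and 1.66 for Mcm5.

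The same comparison was made at 9 months. Mcm2, Mcm3, Mcm5, Mcm6, Ccna2 and Cdc20 rose on HFD by 2.14 to 3.43 times, and no member fell. Thus 6 of 31 members were called higher, where 8.28% of all features were called, 3.56% higher and 4.73% lower. Fitted differences were above 0 for 26 members and below 0 for 5, against 51.1% of all features above 0, with a median of 0.71 against 0.02 over all features. Both HFD arrays lay above both ND arrays for 17 members, against 28.5% of all features, and below them for 3, against 26.1%.

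Mcm5 stood at -3.14 and -3.61 on ND and at -1.75 and -1.45 on HFD at 9 months, 3.43 times higher (1.78 ± 0.27, adjusted p 0.0185). Mcm3 stood at -0.60 and -0.88 against 0.77 and 0.66 (1.46 ± 0.20, adjusted p 0.0139). Mcm6 stood at 0.10 and 0.04 against 1.32 and 1.36 (1.27 ± 0.20, adjusted p 0.0212). In these 3 subunits the diets lay further apart than the arrays of a diet. The call of Mcm5 ended with normexp background correction (0.66, adjusted p 0.226) and with the authors' deposited values (0.32, adjusted p 0.356), each far below 1.78. Mcm2 stood at -1.89 and -2.28 against -0.94 and -1.04 (1.1 ± 0.24, adjusted p 0.046). Mcm4 stood at -0.29 and -0.50 against 0.58 and -0.06 and did not pass (0.65 ± 0.27, adjusted p 0.174). Mcm7 stood at 2.25 and 2.41 against 2.11 and 2.54, with overlap and a fitted difference of -0.01 ± 0.24. Again 5 subunits lay above ND on HFD and Mcm7 did not separate. Of the other licensing genes, Cdc45 stood at -1.75 and -1.73 against -2.63 and -2.02 (-0.59 ± 0.27, adjusted p 0.206), and Cdt1 (0.27 ± 0.27), Mcm10 (0.23 ± 0.22), Gins1 (-0.44 ± 0.22) and Gins2 (0.71 ± 0.48) did not pass either.

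Fork genes were not called at 9 months. Pcna stood at 3.20 and 3.07 on ND and at 3.50 and 2.85 on HFD, with overlap (0.04 ± 0.25). Tyms stood lower on HFD without overlap (-1.27 ± 0.38, adjusted p 0.0909), opposite in sign to Rrm1 (0.18 ± 0.19) and Rrm2 (0.35 ± 0.32). The G1/S genes were nearer the threshold. Ccne1 stood at -1.58 and -1.29 against -0.13 and 0.49 (1.61 ± 0.38, adjusted p 0.0527). E2f1 stood at -1.57 and -1.30 against -0.60 and -0.53 (0.87 ± 0.21, adjusted p 0.058). Ccnd1 stood at 1.44 and 0.00 against 2.74 and 1.76 (1.53 ± 0.52, adjusted p 0.12). The spread of Ccnd1 between the ND mice was almost as large as its difference between diets.

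All 11 mitotic genes again had a fitted difference above 0, against 51.1% of all features, with a median of 1.21. In 8 of them both HFD arrays lay above both ND arrays, against 28.5% of all features. The 11 again include Kif11, Ccna2 and Foxm1, which were kept only through a group on HFD. Cdc20 stood at -2.96 and -3.27 on ND and at -1.59 and -1.51 on HFD (1.57 ± 0.24, adjusted p 0.0182). Ccna2 was not well above background on ND at 9 months (-4.48 and -4.30) and stood at -3.11 and -2.28 on HFD, at least 2.37-fold higher (fitted difference 1.70 ± 0.30, adjusted p 0.0268). Those were the only 2 mitotic calls. Foxm1 stood at -5.48 and -4.12 against -3.17 and -2.36 (2.04 ± 0.49, adjusted p 0.055). Mki67 stood at -3.26 and -2.80 against -2.17 and -0.65 (1.62 ± 0.48, adjusted p 0.0884), and its second probe differed by 2.58. Aurka stood at -3.47 and -2.82 against -1.52 and -2.28 (1.25 ± 0.38, adjusted p 0.0943). Cdk1 stood at -4.51 and -3.65 against -3.15 and -2.82 (1.1 ± 0.36, adjusted p 0.109). In each of these genes both HFD arrays lay above both ND arrays, but the HFD mice of Mki67 lay 1.52 apart. For Cdk1, Aurka and Foxm1 that separation rests in part on values not well above background. At 9 months Cdk1 and Aurka were well above background on 1 of 2 arrays of each diet, Foxm1 and Plk1 on 1 of 2 ND arrays, and Ccnb1 on 1 of 2 ND arrays and no HFD array. Birc5 stood at -2.59 and -0.87 against -0.42 and -0.62 (1.21 ± 0.53, adjusted p 0.193), and a second kept probe of Birc5 differed by -0.09. Ccnb1 stood at -5.40 and -3.39 against -4.96 and -2.98, with overlap (0.42 ± 0.84). Plk1 (0.99 ± 0.53), Ccnb2 (0.37 ± 0.43) and Kif11 (0.60 ± 0.94), which was not well above background in either diet at 9 months, did not pass.

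At 9 months calls were lost when an ND array was left out, over all features as well as over the members. With 1 array left out in turn, the difference of Mcm5 ran from 1.541 to 2.012 and that of Ccna2 from 1.282 to 2.108. The count of called members was 0 with all probes tested, with arrays weighted by their quality, and in a fit of the 4 arrays of 9 months alone. In the same order 274, 276 and 0 features were called in all, against 1670 in the main fit. With the authors' deposited values Ccna2 (0.66, adjusted p 0.0367) and Cdc20 (0.71, adjusted p 0.0386) kept their call at smaller differences.

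**Figure D2:**
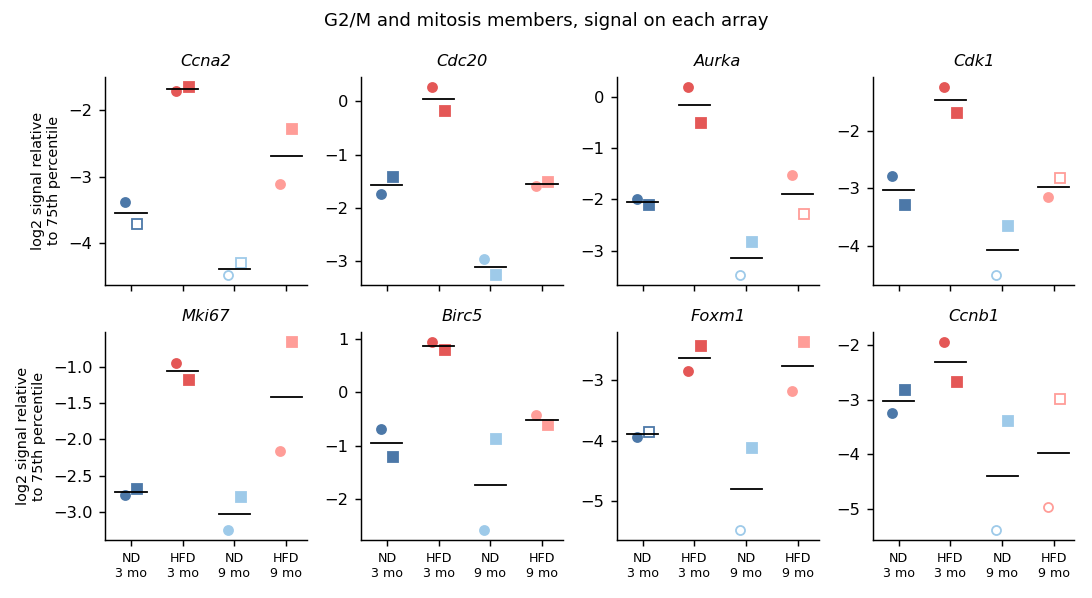
Log2 signal relative to the 75th percentile of each array (y axes, scaled separately for each gene) of 8 G2/M and mitosis genes on all 8 arrays. Circles are replicate 1, squares replicate 2, bars group means and open symbols arrays on which the probe was not well above background; Cdc20 lies between -3.27 and -1.42 on ND and between -1.59 and 0.28 on HFD, and the 2 mice on ND at 9 months lie far apart for Birc5, Foxm1 and Ccnb1.

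When the diet effect was averaged over both durations, 15 members rose on HFD and 1 fell, while 22.1% of all features were called, 10.3% higher and 11.8% lower. Fitted differences were above 0 for 25 members, against 50.3% of all features. The 15 were Mcm2, Mcm3, Mcm4, Mcm5, Mcm6, E2f1, Ccnd1, Ccne1, Ccna2, Cdk1, Cdc20, Mki67, Aurka, Birc5 and Foxm1. For each of them both HFD arrays lay above both ND arrays at each duration, against 35.6% of all features at 3 months and 28.5% at 9 months. The share of all features that did so at both durations was not counted. The 15 were called on these same arrays, so their separation adds no support. Their fitted differences ran from 0.78 for E2f1 (adjusted p 0.0132) to 2.16 for Mcm5 (adjusted p 0.00204). Mcm3 had the smallest adjusted p (1.65 ± 0.15, adjusted p 0.00127), followed by Cdc20 (1.60 ± 0.16, adjusted p 0.00165). Cdc45, the helicase co-factor that joins the ring at origin firing, was the member that fell (-0.61 ± 0.18, adjusted p 0.0478). By role, 5 of 11 licensing genes were called higher, 0 of 5 fork genes, 3 of 4 G1/S genes and 7 of 11 mitotic genes. With 1 array left out in turn, 11 to 18 members were called, and Mcm2, Mcm3, Mcm5, Mcm6, Ccnd1, Ccna2, Cdk1, Cdc20, Mki67, Aurka and Foxm1 kept their call each time. The call of Cdc45 held in 1 of those 8 fits only, and its difference was -0.10 with normexp (adjusted p 0.68) and -0.18 with the authors' deposited values (adjusted p 0.274). Mcm5 differed by 0.99 and Foxm1 by 0.52 with the authors' deposited values, both still called, and Birc5 lost its call when its probes were averaged (1.17, adjusted p 0.115).

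**Figure D3:**
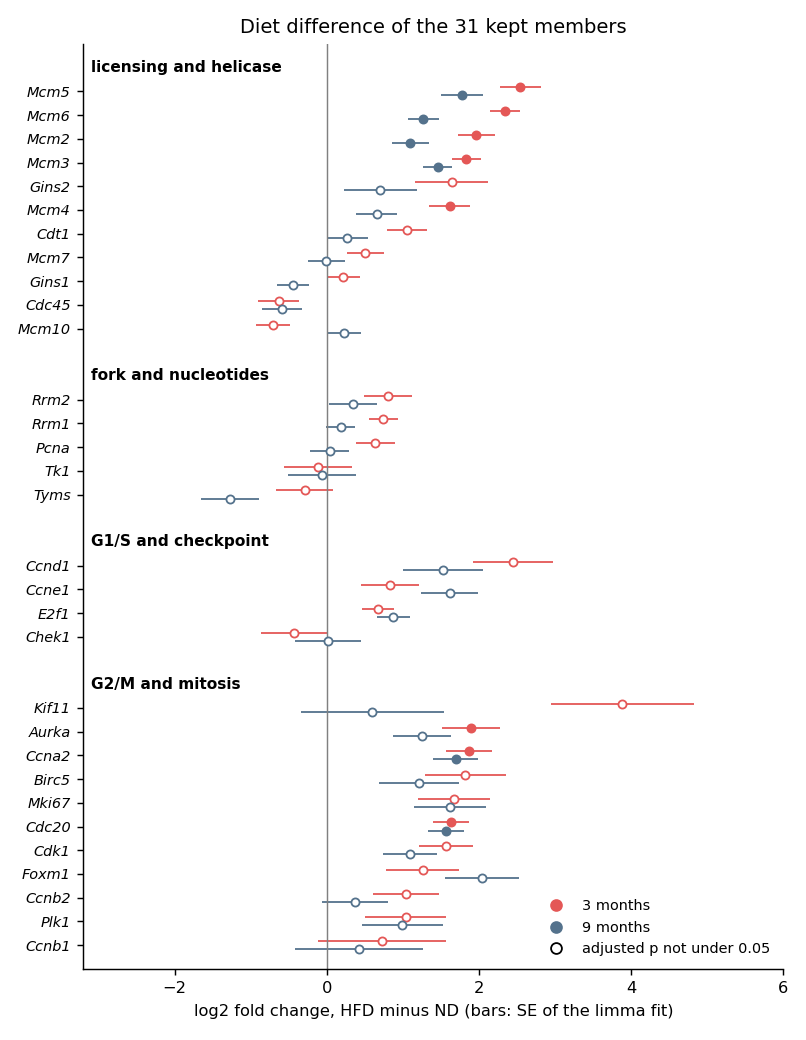
Log2 fold change of HFD over ND (x axis) for the 31 members tested, by role, at 3 months (red) and 9 months (blue-grey), with bars of 1 SE from the limma fit and n = 2 arrays per group. Filled points passed an adjusted p under 0.05; all mitotic genes lie to the right of 0 at both durations, while Mcm10, Cdc45, Tk1, Tyms and Chek1 lie to the left of it at 3 months.

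The diet effect itself did not differ detectably between durations: 0 of 31 members, and 0% of all features, were called for the difference of the effects. At an unadjusted p under 0.05 there were 5 of 31 members, against 1537 of all 20165 features. Fitted differences of the effects were below 0 for 24 members and above 0 for 7, with a median of -0.51 against 0.06 over all features, of which 55.2% were above 0. All 6 subunits of the ring were among the 24, from -0.38 for Mcm3 to -1.07 for Mcm6 (adjusted p 0.494 for Mcm6). The difference of the effects was -0.07 ± 0.34 for Cdc20, -0.06 ± 0.67 for Mki67 and 0.78 for both Foxm1 and Ccne1 (adjusted p 0.801 and 0.757).

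Levels at 9 months were then compared with those at 3 months within each diet, where 2 of 31 members were called on ND and 0 of 31 on HFD. On ND, Mcm3 and Mcm5 fell and no member rose, against 1.04% of all features called, 0.595% lower and 0.441% higher. Mcm5 went from -1.01 and -1.34 at 3 months to -3.14 and -3.61 at 9 months (-2.20 ± 0.27, adjusted p 0.031), a 4.6-fold lower level. That difference shrank to -0.94 with normexp (adjusted p 0.245) and to -0.76 with the authors' deposited values (adjusted p 0.154), and neither passed. Mcm3 went from 0.66 and 0.51 to -0.60 and -0.88 (-1.33 ± 0.20, adjusted p 0.0443). Cdc20 (-1.53 ± 0.24, adjusted p 0.0504), Mcm10 (-1.41 ± 0.22, adjusted p 0.0535) and Mcm6 (-1.21 ± 0.20, adjusted p 0.0587) lay just outside the threshold. Of the 31 members 28 had a fitted difference below 0, with a median of -0.83 against -0.07 over all features, of which 42.7% were above 0. Both 9-month arrays lay below both 3-month arrays for 22 members, against 37.1% of all features, and above them for 2, Mcm7 and Tyms, against 23.4%. Tyms was the member with the largest difference in the other direction (1.11 ± 0.38, adjusted p 0.237). These calls were lost when an ND array or an HFD 3-month array was left out, and calls over all features fell too. With 1 array left out in turn, the difference of Mcm3 ran from -1.464 to -1.187 and that of Mcm5 from -2.438 to -1.967. In a fit of the ND slide alone no member was called, where 137 features were called in all, against 209 in the main fit.

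On HFD no member was called between 9 and 3 months, where 0.00992% of all features were called (0.00496% higher and 0.00496% lower). An unadjusted p under 0.05 was reached by 18 of 31 members, against 3120 of all 20165 features. Both 9-month arrays lay below both 3-month arrays for 5 of the 6 ring subunits, while Mcm7 overlapped (-0.39 ± 0.24, adjusted p 0.461). Mcm5 went from 1.59 and 1.15 to -1.75 and -1.45 (-2.97 ± 0.27, adjusted p 0.0555) and Mcm6 from 3.79 and 3.46 to 1.32 and 1.36 (-2.28 ± 0.20, adjusted p 0.0555). Mcm3 (-1.71 ± 0.20, adjusted p 0.0589), Cdc20 (-1.60 ± 0.24, adjusted p 0.089) and Mcm4 (-1.79 ± 0.27, adjusted p 0.0927) followed. Kif11 was not well above background at 9 months and lay at least 4.9-fold lower there, Gins2 at least 3.15-fold and Ccnb1 at least 2.26-fold, none past the test (adjusted p 0.184, 0.155 and 0.385). In all, 29 of 31 members had a fitted difference below 0, with a median of -1.02 against -0.0043 over all features, of which 49.6% were above 0. Both 9-month arrays lay below both 3-month arrays for 24 members, against 23.3% of all features, and above them for 0, against 21%. Without HFD 9 months replicate 1, 11 members were called. That fit also called far more of all features than the main fit. Quantile normalization called 3 members and the authors' deposited values 4, all lower at 9 months. Under these settings 61 and 69 features were called in all, against 2 in the main fit.

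**Figure D4:**
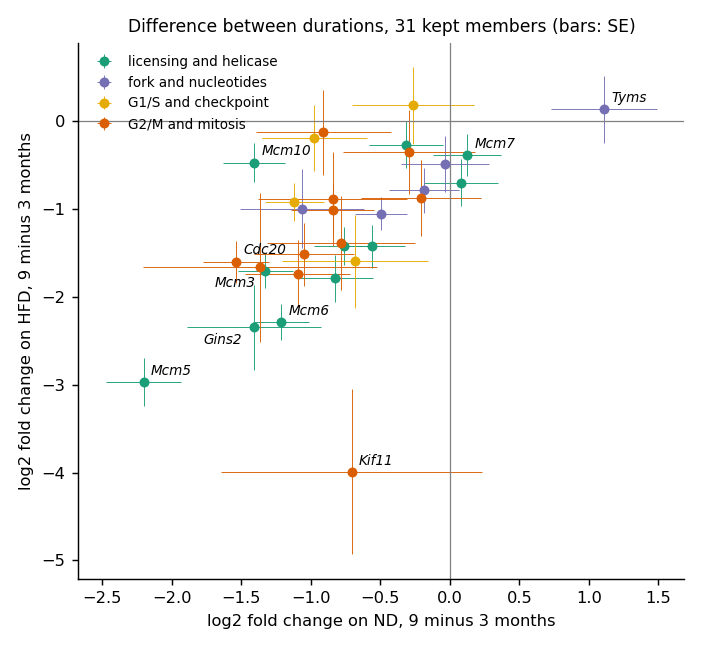
Log2 fold change of 9 over 3 months of feeding on ND (x axis) and on HFD (y axis) for the 31 members tested, coloured by role, with bars of 1 SE from the limma fit. Most points lie below 0 on both axes, Mcm5 at -2.20 and -2.97. Tyms, Mcm7 and Cdt1 (0.08) lie to the right of 0 on the ND axis.

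The order of the 4 group means was read over the 22 members that were well above background on all 8 arrays, since values at background carry no order. Of these, 15 stood highest on HFD at 3 months and lowest on ND at 9 months, against 17.7% of the 15898 features measured on all arrays. They were Mcm2 to Mcm6, Pcna, Rrm1, Rrm2, E2f1, Ccnd1, Ccne1, Ccnb2, Cdc20, Mki67 and Birc5. The groups between, ND at 3 months and HFD at 9 months, lay close together for Mcm6 (1.28 and 1.34), Mcm3 (0.58 and 0.72) and Cdc20 (-1.58 and -1.55). For Mki67 they lay apart, and its mean stood higher on HFD at both durations (-1.06 and -1.41) than on ND at either (-2.73 and -3.03). The 7 members with other ends were Mcm7, Mcm10, Cdt1, Cdc45, Gins1, Tyms and Tk1.

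The roles were then set side by side, each member taken relative to its own mean on the ND 3-month arrays. The 11 licensing genes averaged 1.13 ± 0.15 (SD, n = 2 arrays) on HFD at 3 months, -0.89 ± 0.03 on ND at 9 months and -0.31 ± 0.03 on HFD at 9 months. The 11 mitotic genes averaged 1.67 ± 0.39, -0.88 ± 0.58 and 0.29 ± 0.40 in the same groups. The mitotic mean includes Kif11, Ccna2 and Foxm1 and the licensing mean Gins2, which passed only through a group on HFD. Of these, Kif11 had the largest diet difference at 3 months (3.88), which raises the mitotic mean there. On ND at 9 months the mice lay far apart in the mitotic mean, with replicate 1 at -1.28 and replicate 2 at -0.47, and close together in the licensing mean (-0.87 and -0.91). On ND at 3 months the reverse held, with an SD of 0.0243 for the mitotic mean and 0.0735 for the licensing mean. The G1/S genes averaged 0.88 ± 0.23, -0.76 ± 0.18 and 0.25 ± 0.18, and the fork genes 0.35 ± 0.04, -0.13 ± 0.14 and -0.29 ± 0.20, the narrowest range of the 4 roles. The diet difference of the licensing mean was lower than that of the mitotic mean by 0.547 at 3 months and by 0.585 at 9 months. No test was made of these means, and the 3-month value changed sign to 0.0806 with the authors' deposited values. Over the 10 licensing and 4 mitotic members well above background on all arrays, the licensing difference was lower by 0.468 at 3 months. At 9 months it was lower by 0.621 over the same members. The licensing mean also holds Mcm7, Mcm10, Cdc45 and Gins1 beside the 5 subunits that rose; over Mcm2 to Mcm7 alone the median difference was 1.90 at 3 months and 1.19 at 9 months, against 1.63 and 1.21 over the mitotic genes.

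**Figure D5:**
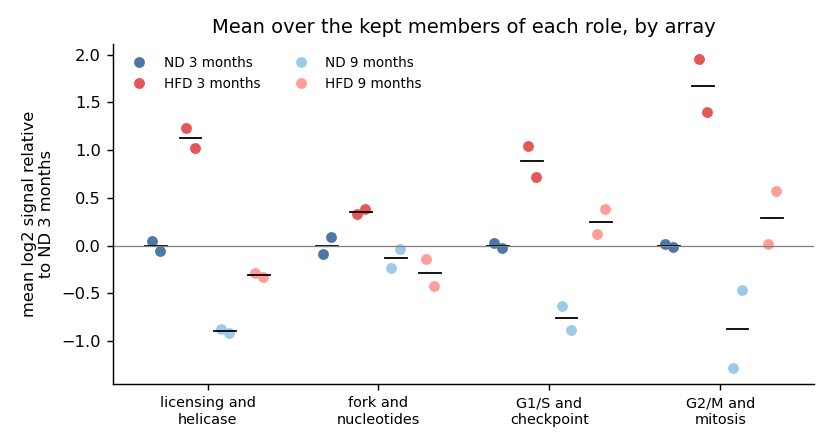
Mean over the tested members of each role of the log2 signal relative to each member's own ND 3-month mean (y axis), with 1 point per array and a bar for each group mean. Licensing points lie at -0.29 and -0.33 on HFD at 9 months and at 1.23 and 1.02 on HFD at 3 months; mitotic points lie at -1.28 and -0.47 on ND at 9 months and at 0.02 and -0.02 on ND at 3 months.

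Genes outside the 38 were counted in further lists of the same pathways, to be read against the 1.51% of all features called higher on HFD at 3 months and the 3.56% at 9 months. Of 13 tested genes of origin recognition and firing, 0 were called at either duration. At 3 months 6 had an unadjusted p under 0.05, against 5294 of all 20165 features, and at 9 months 5, against 5786. The smallest p at 9 months was that of Gins3 (-1.29 ± 0.31, adjusted p 0.0563), followed by Orc4 (0.69 ± 0.18) and Orc6 (0.55 ± 0.17), and at 3 months Gins4 (0.73 ± 0.24, adjusted p 0.123), Gins3 (-0.92 ± 0.31) and Topbp1 (0.74 ± 0.27). The GINS partners thus lay on both sides of 0. Of 25 tested polymerase, clamp loader and ligation genes, 2 were called higher at 3 months and 4 at 9 months, and none lower. Of these calls Pole2 and Uhrf1 had no ND array well above background at the duration at which they were called. Asf1b, a histone chaperone, rose by 1.73 ± 0.26 at 3 months (adjusted p 0.0255), and Pola1, the primase-bound polymerase, by 0.94 ± 0.17 at 9 months (adjusted p 0.0296). Pole2 was not well above background on ND and lay at least 2.49-fold higher on HFD at 3 months (adjusted p 0.00736); at 9 months it was called but not well above background in either diet. Uhrf1, which brings DNA methylation to new strands, lay at least 9.34-fold higher at 3 months (adjusted p 0.0684) and 9.66-fold at 9 months (adjusted p 0.0241).

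Of 27 tested kinetochore, spindle and cytokinesis genes, 6 were called higher at 3 months and 5 at 9 months, and none lower. Prc1, which bundles the spindle midzone, rose by 2.28 ± 0.22 at 3 months (adjusted p 0.00954) and lay at least 2.56-fold higher at 9 months (adjusted p 0.0056). Spc25 (1.63 ± 0.22, adjusted p 0.0208) and Ncaph (1.35 ± 0.19, adjusted p 0.0211), of the kinetochore and of condensin, rose at 3 months. The checkpoint gene Mad2l1 rose by 1.98 ± 0.21 at 9 months (adjusted p 0.0088), when the motor gene Cenpe lay at least 2.11-fold higher (adjusted p 0.0132). Median differences over the list were 0.97 and 0.48. Of 23 tested E2F, Rb and kinase genes, 1 was called higher at each duration, the pocket protein gene Rbl1 (2.25 ± 0.40 at 3 months, adjusted p 0.0336, and at least 1.38-fold at 9 months, adjusted p 0.0484). Cdc25b (0.84 ± 0.18, adjusted p 0.0515) and Cdk2 (0.62 ± 0.21, adjusted p 0.129) at 3 months, and E2f5 (-1.39 ± 0.59) and Ccnd2 (0.57 ± 0.24) at 9 months, did not pass. At 9 months Prc1, Cenpe and Rbl1 were well above background on only 1 HFD array and on no ND array.

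Among 7 tested inhibitors of cyclin-dependent kinases, 2 rose at 3 months and 1 at 9 months. Cdkn1a (p21), the arrest gene downstream of p53, stood at -3.30 and -3.07 on ND and at -0.90 and -0.96 on HFD at 3 months, and at 0.62 and 1.14 on ND and 0.50 and 1.36 on HFD at 9 months. It rose by 2.25 ± 0.33 with HFD at 3 months (adjusted p 0.0237) and by 4.06 ± 0.33 with duration on ND (adjusted p 0.0146), and the diets overlapped at 9 months (0.06 ± 0.33). Its lowest group was thus ND at 3 months, unlike Mcm2 to Mcm6. Cdkn1b (p27) differed by -0.32 ± 0.20 and 0.26 ± 0.20 at the 2 durations, Cdkn2c (p18) by 0.60 ± 0.39 and 1.09 ± 0.39, and Cdkn2d (p19) by 0.44 ± 0.26 and 0.70 ± 0.26; none passed. Cdkn3, a phosphatase that acts on Cdk1 and Cdk2 and peaks in mitosis, lay at least 2.11-fold higher on HFD at 3 months (adjusted p 0.0155). It was also called at 9 months, where it was not well above background in either diet. Among genes of homologous recombination, Fanci lay at least 1.56-fold higher on HFD at 3 months (adjusted p 0.0173), with no ND array well above background. Bard1, the partner of Brca1, fell at both durations, with log2 differences of -4.11 and -5.395 (adjusted p 0.00954 and 0.0056). At 9 months it was well above background on only 1 HFD array, so the size of that difference is uncertain.

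Markers of the cell types that liver can hold were measured on the same arrays, and their part in the results above was not tested. All 12 hepatocyte markers were measured. Their summed signal, as a multiple of the 75th percentile, was 5072 to 5601 on ND and 3491 to 3694 on HFD at 3 months. At 9 months it was 4713 to 5033 on ND and 3405 to 4974 on HFD. The median difference over the 12 was -0.515 at 3 months and -0.441 at 9 months, and only Tat was called, lower at 9 months. The sum of 11 of 13 macrophage and Kupffer cell markers was 62.8 to 78.7 on ND and 117 to 148 on HFD at 3 months, and 136 to 437 and 151 to 239 at 9 months, with 0 called and Cd163 at background. Of 8 lipid-associated macrophage markers, 2 rose at 3 months (Trem2 and Itgax) and 4 at 9 months (with Gpnmb and Cd63), and the sum was 18.9 to 21.9 against 16.1 to 30.0, then 11.8 to 16.0 against 53.1 to 55.3. Of 10 stellate cell and fibroblast markers 9 were measured (Des was at background), of which 3 rose at 3 months and 4 at 9 months (Col1a1, Col1a2 and Col3a1, then also Lum), and the sum was 74.6 to 85.0 against 103 to 140, then 81.2 to 105 against 102 to 122. Endothelial markers (9 of 9) summed to 36.9 to 54.4 on ND and 49.4 to 64.3 on HFD, and Emcn rose at both durations and Lyve1 at 3 months. T and NK cell markers (8 of 14, with Cd8a and Klrb1c at background) summed to 162 to 231 on ND and 28.8 to 61.7 on HFD, and Cd4 fell at both durations, while the median difference over the 8 was 0.50 at 3 months and -0.04 at 9 months. Neutrophil markers (5 of 8, Cxcr2 at background) summed to 68.3 to 226, and Elane fell at 9 months while the median difference over the 5 was 0.42 at 3 months and 1.11 at 9 months. Markers of B and plasma cells (5 of 8, Cd79a at background) summed to 1.07 to 3.81, and those of megakaryocytes and platelets (3 of 4, Itga2b at background) to 1.01 to 12.0, with 0 called. Cholangiocyte markers (5 of 7, Krt7 and Epcam at background) summed to 1.59 to 2.71 and Cftr fell at 9 months. The 6 erythroid markers measured summed to 93.3 to 925 with 0 called.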

How the data were processed

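Each array file deposited by the authors is scanner output of Agilent Feature Extraction 10.7.1.1, per the submitters' processing notes. Per the file headers, background had been subtracted from the processed signal, an intensity, and spatial trends removed, and the deposited flags are other values (0 or 1 for each spot). The authors' deposited value table holds log2 values with a column median of 7.14 and was used as an alternative only; that its values are the median spot signals, quantile-normalized and without background subtraction, was read from their ranks and equal distributions, and no label states it.

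From 59305 spots, 3671 controls and all outlier and non-uniform spots were left out. The log2 processed signal (pseudocount 0) was set relative to the 75th percentile of its array and averaged over the spots of a probe. A probe had to be well above background on all arrays of some group (25801 of 55681 probes), and the brightest such probe stood for its gene (20165 features). Symbols came from RefSeq by accession. The array annotation uses mm9, so the RefSeq assembly GRCm38.p6 gave names and promoter sequence and no probe position.

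Differences were fitted and tested in R 4.3.3 by limma 3.58.1 (tables read by data.table, version 1.17.8), in a fit of the 4 group means (residual degrees of freedom 4, prior 2.33) and for diet over both durations in a fit with duration as a covariate. Adjusted p-values are Benjamini-Hochberg values over all features, with a threshold of 0.05. Precision is limited by 2 arrays per group, which per the labels hold separate mice. Shared mouse numbers did not pair the samples. The replicate differences of the groups correlated at -0.0181 to 0.137 over features.

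The members and lists were chosen with earlier results of these data known, so no test was made over a list. Values on each array were to be given for members that passed any of the 6 contrasts without overlap and for Mcm2, Mcm7, Pcna, Ccnd1, Ccne2, Ccna2, Ccnb1, Cdk1, Top2a and Mki67, and for other lists up to 3 genes with the smallest p in each comparison of diets, with Cdkn1a, Cdkn1b and Cdkn2c. Some genes and counts that this rule covers are not reported here. A fold given as "at least" compares the bright group with, on each dim array, the dimmest signal that is well above background there, or the probe's own signal where that is higher. It is an estimate and not a strict bound, because that dimmest signal is not the detection limit of every probe. On HFD 9 months replicate 2 it was -3.755, yet Aurka at -2.28 was not well above background there. The method was tested on simulated data. Alternatives were another normalization, background correction (normexp, offset 50), probe filter, probe rule and moderation, array weights, the authors' values, a replicate block, subsets of arrays, and leaving out each array. Promoter searches and plots used Python 3.11.15 with pandas 2.3.3, numpy 2.4.6 and matplotlib 3.10.9.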

Additional observations from a re-analysis of the deposited data

Results flagged for a closer look

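Gins1, a subunit of the GINS complex, had opposite diet differences at the 2 durations: 0.215 at 3 months, with both HFD arrays (1.17 and 0.88) above both ND arrays (0.87 and 0.74), and -0.445 at 9 months, with both HFD arrays (-0.20 and -0.60) below both ND arrays (0.12 and -0.03). At 3 months the nearest arrays of the diets stood at 0.8773 and 0.8718. The difference of the effects was -0.659 and did not pass the test (limma, adjusted p 0.69).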

How the results depend on the processing

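Of the results for genes past the threshold, 281 of 329 stayed past it under other settings and 170 of 256 with 1 array left out, and 0 reversed. Leaving out 1 array in turn gave 0 to 11 called members at 3 months, 1 to 6 at 9 months, 0 to 2 for ND between durations, 0 to 11 for HFD between durations and 11 to 18 over both durations. Members called at 3 months numbered 13 with normexp and 1 when dim probes were not filtered, where 1264 and 68 features were called in all. They numbered 18 with array weights (17 higher on HFD and 1 lower), where 3972 features were called in all. With the 3-month arrays alone they numbered 17, where 2780 features were called in all. At 9 months they numbered 0 under 3 settings (no filter, array weights, the 9-month arrays alone), where 274, 276 and 0 features were called in all. Counts over all features moved with the settings in the other comparisons too. With no filter on dim probes the median of all features went from -0.01 to 0.254 and from 0.02 to 0.296 in the comparisons of diets and from -0.0043 to 0.153 for HFD between durations. For ND between durations the count of members was 0 with no filter and on the ND slide alone, where 5 and 137 features were called in all. It was 5 with probes above background on all arrays, 4 with trend and robust moderation and 7 with array weights. Under these settings 232, 324 and 1409 features were called in all, against 209 in the main fit. For HFD between durations the count of members was 3 with quantile normalization, 2 with normexp and 4 with the authors' deposited values. It was 3 with probes above background on all arrays and 2 with trend and robust moderation. In the same order 61, 32, 69, 16 and 19 features were called in all, against 2 in the main fit. The difference of the diet effects gave 0 members under all settings run. The cause of these shifts was not tested.

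Uncalled differences at 9 months changed sign near 0: Pcna to -0.007252 with quantile normalization and -0.03953 with normexp, and, with the authors' deposited values, Mcm7 to 0.009899 and Ccnb1 to -0.03043. With 1 array left out Mcm7 ran from -0.2192 to 0.2077, Pcna from -0.2895 to 0.3635 and Ccnb1 from -0.5833 to 1.426. Licensing minus mitotic at 3 months was -0.153 with normexp and 0.0806, reversed, with the authors' values, and ran from -0.715 to -0.378 with 1 array left out; at 9 months it was -0.141 with the authors' values and ran from -1.01 to -0.157.

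With the mouse number as a replicate block, 8 members were called at 3 months, 7 at 9 months and 0 for ND between durations. In the same order 803, 1358 and 56 features were called in all. For ND between durations Mcm3 (adjusted p 0.0655) and Mcm5 (0.0577) no longer passed. At 3 months Aurka (0.0618) no longer passed and Ccnd1 (0.0358) did. Slide could not be fitted as a covariate in comparisons of diets. Signal near background limits Gins2, Kif11, Ccna2, Ccnb1, Foxm1 and Chek1 most, and in data simulated for the 3-month diet comparison the test found 3 of 67 features changed by 1 on the log2 scale.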
